A study of Mus musculus with 6 samples.

Results

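The 10 genes that mark the most immature progenitors of the thymus were followed across the libraries of a Tox-targeting experiment. They are Kit, Flt3, Lmo2, Lyl1, Hhex, Mef2c, Meis1, Bcl11a, Spi1 and Cd34, chosen by name as regulators and surface proteins of early thymic progenitors. All 10 were found among the 22298 listed genes by their symbols. Thymocytes labelled double-negative, immature T cell precursors without CD4 or CD8 on the surface, were sorted from C57BL/6 mice and their messenger RNA was sequenced. The tested mice, Toxf/fPdcd1Cre, carried loxP-flanked alleles of Tox and a Cre recombinase that takes its name from Pdcd1, which encodes PD-1, a receptor that restrains T cells. The control mice, Toxf/f, carried the same flanked alleles without Cre, so all animals shared them. In each genotype the first and second replicates were taken at 3 weeks of age and replicate 3 at 4 weeks, with no treatment. Which cells of the thymus express this Cre, and whether each sample was 1 mouse or a pool, is not stated.

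Toxf/f replicates 1 and 2 had the same value for each of the 22298 genes, and the column header of both carries the number 2. They were counted as 1 library, which left 3 Toxf/fPdcd1Cre and 2 Toxf/f libraries with 14245492 to 16199195 estimated counts each. Tox itself was at 19.2, 16.4 and 13.8 CPM (counts scaled to library size) in the Toxf/fPdcd1Cre libraries and at 121 and 105 CPM in the Toxf/f libraries. Pdcd1 had 0 counts in the 3 Toxf/fPdcd1Cre libraries, and 19 and 0 counts in the Toxf/f libraries. Beside the double-negative label, which the protocol narrows to the DN2 stage, Cd8a ranked 26 and Cd4 ranked 105 of all genes by mean CPM. Toxf/fPdcd1Cre replicate 1 stood apart. It held 1 count of Ddx3y, a gene of the Y chromosome, against 843 and 1033 counts in the other libraries of its genotype and 1105 and 1354 counts in Toxf/f. Values for the 10 genes that this library moves are given with and without it.

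Early thymic progenitors arrive from the bone marrow with a set of stem and progenitor genes still active. KIT and FLT3 are receptor tyrosine kinases that carry growth and survival signals, while LMO2 and LYL1 work together in a DNA-bound complex of blood progenitors. SPI1 (PU.1), BCL11A, MEF2C, MEIS1 and HHEX are transcription factors that are shared with stem, myeloid or B cell programmes. As Notch signals drive T lineage commitment, most of these genes are switched off, before or around the time when the factor BCL11B rises. Several of them also serve in cells other than progenitors: Flt3 and Spi1 in dendritic cells, Spi1 in macrophages, Bcl11a and Mef2c in B cells and plasmacytoid dendritic cells, and Cd34, Kit, Lyl1 and Mef2c in blood vessels or other stroma.

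The start-site sequences of the genes differ in base composition and in short motifs. RefSeq's table for GRCm38.p6 held a promoter for 8 of the 10 genes, from 250 bases before to 50 after a start, and none for Lmo2 and Spi1. The promoters of Flt3, Kit and Cd34 are shown because Flt3 was lower in Toxf/fPdcd1Cre cells, Kit was lower once 1 library was left out and Cd34 had like mean levels in both genotypes. Capitals mark matches, on either strand, to 5 short motifs. SPI1 is known to bind sites with the core GAGGAA. The letters AGATAA are read by factors such as GATA3. E proteins and partners such as LYL1 bind E-boxes of the form CAGNTG. MEIS factors bind TGACAG, and TATAAA is the core of the classical promoter box of that name.
Flt3, chr5:147400440-147400739, minus strand: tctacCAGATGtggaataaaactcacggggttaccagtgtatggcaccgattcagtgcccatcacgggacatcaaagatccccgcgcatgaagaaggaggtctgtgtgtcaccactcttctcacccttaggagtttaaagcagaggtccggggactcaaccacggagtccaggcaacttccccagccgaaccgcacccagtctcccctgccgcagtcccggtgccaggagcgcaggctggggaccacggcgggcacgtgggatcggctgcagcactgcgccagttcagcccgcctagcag
Kit, chr5:75574737-75575036, plus strand: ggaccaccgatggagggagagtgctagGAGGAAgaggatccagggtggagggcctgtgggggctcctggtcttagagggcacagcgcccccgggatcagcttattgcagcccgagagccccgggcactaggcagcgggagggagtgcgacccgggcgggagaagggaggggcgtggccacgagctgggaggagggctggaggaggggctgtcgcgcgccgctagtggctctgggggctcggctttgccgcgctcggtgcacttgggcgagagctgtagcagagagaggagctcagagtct
Cd34, chr1:194938571-194938870, plus strand: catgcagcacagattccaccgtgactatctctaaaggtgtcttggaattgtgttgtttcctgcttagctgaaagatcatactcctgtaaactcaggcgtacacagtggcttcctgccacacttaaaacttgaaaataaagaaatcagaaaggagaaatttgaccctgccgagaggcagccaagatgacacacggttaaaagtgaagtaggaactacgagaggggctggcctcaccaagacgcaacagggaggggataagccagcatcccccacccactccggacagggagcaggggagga
With positions counted from the start and negative before it, the Flt3 promoter had 1 CAGNTG match, at position -245, and no match to the other motifs. In the Kit promoter, the first of its listed pair, there was 1 match to GAGGAA, at position -223. The Cd34 promoter held no match to any of them. Of all 32851 promoters of this length in the table, 28.3% held GAGGAA, 51.4% CAGNTG, 11.2% AGATAA, 19.2% TGACAG and 13.6% TATAAA. The Lyl1 promoter carried both a GAGGAA and a CAGNTG match, and the first promoter of Mef2c, one of 3 listed for that gene, carried GAGGAA and TATAAA. Base composition differed widely among the genes, with 75.7% G and C in the promoter of Hhex, 69.0% in that of Kit, 61.0% in that of Flt3 and 35.7% in the first promoter of Mef2c, against a median of 52.7% over the table. These matches describe the letters of the window and do not show binding.

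All 10 genes were transcribed at low to moderate levels. On the FPKM scale, which corrects for gene length and so allows genes to be compared, Cd34 stood highest at 14 ± 3.01 FPKM (SD over all 5 libraries) and Spi1 came next at 7.50 ± 1.62 FPKM. These top ranges did not overlap each other, and that of Spi1 did not overlap the range of the gene after it. The next 5 genes could not be ordered beyond their spread: Flt3 averaged 3.32, Kit 3.21, Lmo2 2.94, Mef2c 2.91 and Meis1 2.88 FPKM. Bcl11a at 2.29, Hhex at 1.81 and Lyl1 at 1.72 FPKM closed the order, each range overlapping that of its neighbour. By mean CPM the genes lay between percentile 16.8 (Lyl1) and percentile 58.0 (Cd34) of the 14121 genes tested, and Kit, the receptor by which early double-negative cells are commonly sorted, lay at percentile 42.5.

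**Figure D1:**
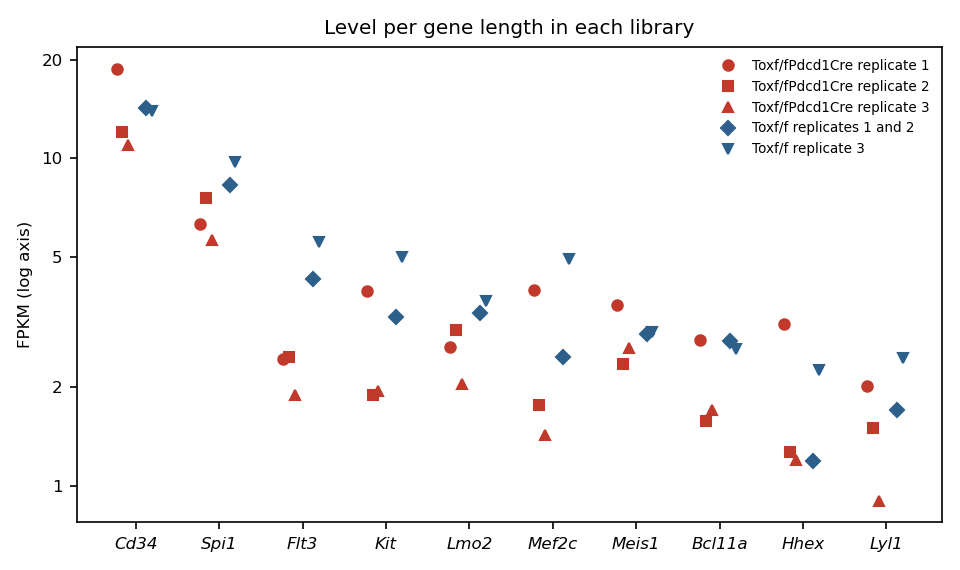
FPKM (log axis) of the 10 early progenitor genes in each library, ordered by their mean over all 5 libraries, with Toxf/fPdcd1Cre to the left of Toxf/f for each gene. Cd34 and Spi1 lie above the rest in each library, while the ranges of the next genes overlap.

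One of the 10 genes changed between the genotypes, and it fell. Flt3, the receptor for FLT3 ligand on multipotent progenitors and dendritic cells, was lower in every Toxf/fPdcd1Cre library than in any Toxf/f library. Of the 10 log2 fold changes 8 lay below 0, with a median of -0.40, beside a median of 0.025 and 45.2% below 0 over all genes tested. Of the genes tested, 1.51% were called lower at an adjusted p under 0.05 (edgeR) and 0.135% were called higher, against 1 and 0 of these 10. Before adjustment 2 of them, Flt3 and Kit, were lower at p under 0.05 and 0 higher, where 7.26% of all tested genes were lower and 3.08% higher. All 10 passed the filter on low counts.

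**Figure D2:**
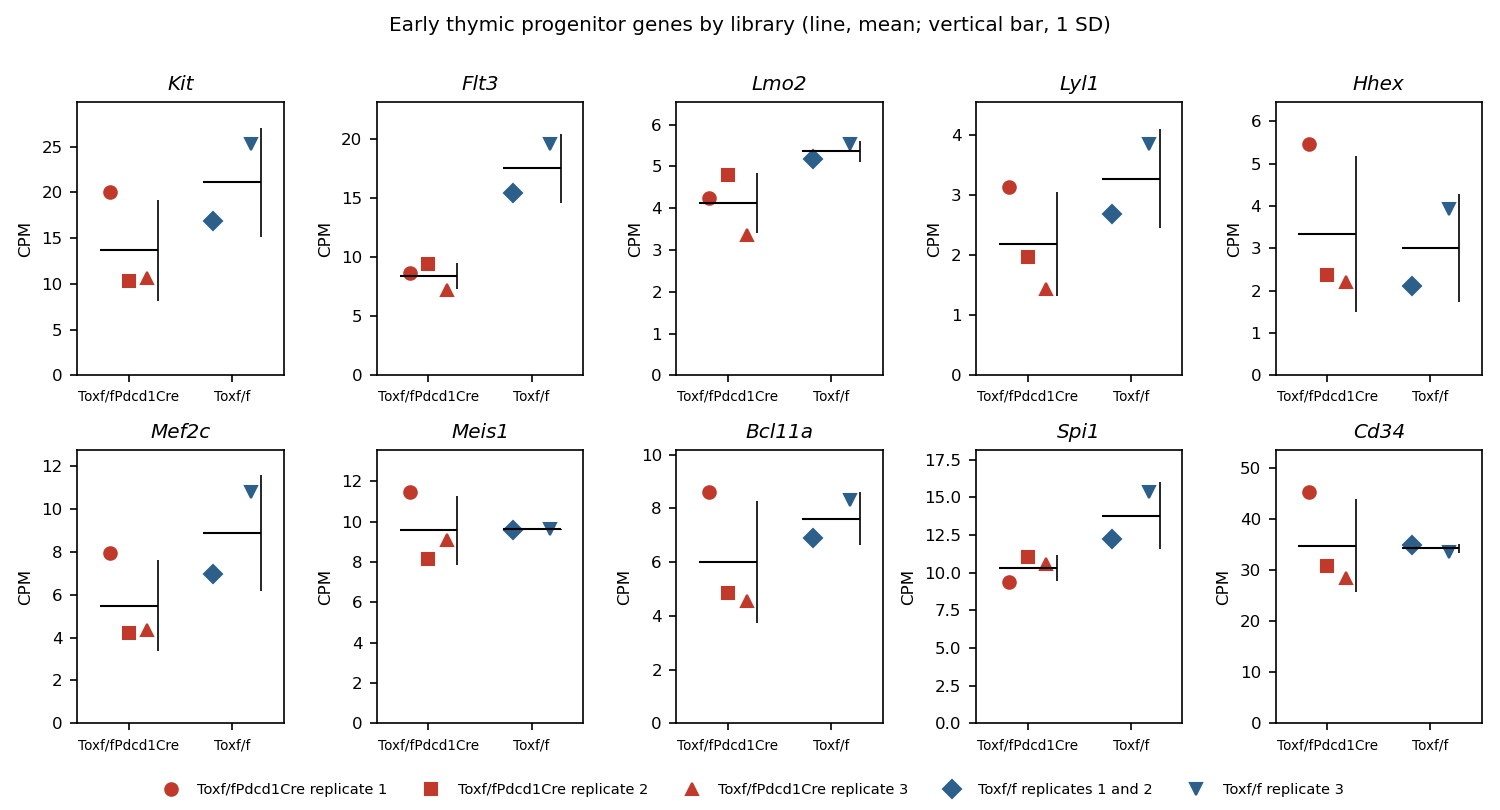
CPM of each early progenitor gene in each library, with horizontal lines at the genotype means and vertical bars of 1 SD (n = 3 Toxf/fPdcd1Cre, n = 2 Toxf/f). Flt3, Spi1 and Lmo2 show no overlap between genotypes, while for Kit, Mef2c, Lyl1, Bcl11a and Hhex the circle of Toxf/fPdcd1Cre replicate 1 lies among or above the Toxf/f values.

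Among the receptors, Flt3 (ENSMUSG00000042817, chromosome 5 from 147330741 to 147400489 in GRCm38, minus strand) had 8.68, 9.38 and 7.22 CPM in Toxf/fPdcd1Cre replicates 1, 2 and 3, against 15.4 and 19.6 CPM in the Toxf/f libraries. The counts behind these values were 127, 147 and 105 in Toxf/fPdcd1Cre and 241 and 325 in Toxf/f. Every Toxf/fPdcd1Cre library was thus below both controls, replicate 1 included. The log2 fold change was -1.05 ± 0.21 (SE), a 2.08-fold lower level, with an adjusted p of 0.0277 (edgeR's quasi-likelihood test, Benjamini-Hochberg over all genes tested) and rank 161 of 14121 by p. The exact permutation test of its CPM (two-sided) gave p = 0.1, which is the lowest p that 3 against 2 libraries allow. Flt3 was no longer called when Toxf/f replicates 1 and 2 were left out (adjusted p = 0.115, edgeR), without Toxf/f replicate 3 (adjusted p = 0.393), without Toxf/fPdcd1Cre replicate 3 (adjusted p = 0.115), with age as a covariate (adjusted p = 0.0768) and on the log2(FPKM + 1) scale (adjusted p = 0.0811, limma). Over the 17 alternatives that tested it, the log2 fold change lay between -1.21 and -0.85.

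Kit (ENSMUSG00000005672, chromosome 5 from 75574916 to 75656722, plus strand), the receptor for stem cell factor, split the Toxf/fPdcd1Cre libraries. It was at 20.02 CPM in Toxf/fPdcd1Cre replicate 1 but at 10.3 and 10.7 CPM in replicates 2 and 3, against 16.9 and 25.3 CPM in the Toxf/f libraries. Counts were 293, 161 and 155 in Toxf/fPdcd1Cre and 264 and 420 in Toxf/f. Replicate 1 alone lay between the controls, so that the groups overlapped. Over all libraries the log2 fold change was -0.63 ± 0.29 (SE) and did not pass (adjusted p = 0.479, edgeR). Without Toxf/fPdcd1Cre replicate 1 it was -1.06 ± 0.23 (SE) and passed (adjusted p = 0.0426, edgeR), next to Flt3 at -1.12 ± 0.22 (adjusted p = 0.0292), so that 2 of the 10 genes were then called lower, where 4.21% of all genes tested were. The log2 fold change of all 10 genes lay below 0 in that fit, as did 51.4% of all genes. Replicate 1 was the highest Toxf/fPdcd1Cre library for 7 of the 10, Kit included, so leaving it out was bound to lower their log2 fold changes. Kit was called in 2 of 18 alternatives. The other was a fit with replicate number as a block in which replicate 1 adds nothing to the genotype difference.

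**Figure D3:**
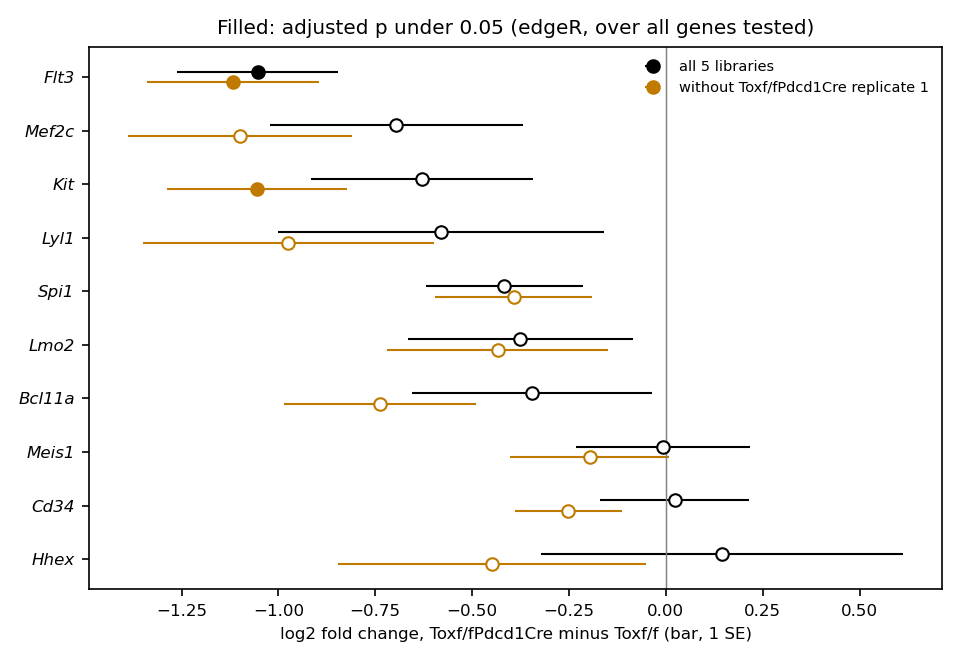
Log2 fold changes of the early progenitor genes, Toxf/fPdcd1Cre minus Toxf/f, with bars of 1 SE, from all 5 libraries (black) and without Toxf/fPdcd1Cre replicate 1 (orange), where filled symbols passed an adjusted p of 0.05. Flt3 passed in both fits, Kit once replicate 1 was left out, and Spi1 and Lmo2 moved little between the fits.

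Of the LMO2 and LYL1 complex, neither subunit passed the test. Lmo2 (ENSMUSG00000032698, chromosome 2 from 103957986 to 103981878, plus strand) encodes the LIM-only bridge of the complex. It had 4.24, 4.79 and 3.37 CPM in Toxf/fPdcd1Cre and 5.19 and 5.54 CPM in Toxf/f, so its groups did not overlap, by a narrow margin. Its log2 fold change of -0.38 ± 0.29 (SE) rested on 49 to 92 counts per library (adjusted p = 0.771, edgeR). Lyl1 (ENSMUSG00000034041, chromosome 8 from 84701457 to 84704715, plus strand), the basic helix-loop-helix partner, had 3.14, 1.98 and 1.44 CPM in Toxf/fPdcd1Cre and 2.69 and 3.86 CPM in Toxf/f. With 21 to 64 counts per library this was the least abundant of the 10 in FPKM, and its log2 fold change of -0.58 ± 0.42 (SE) had an interval from -1.503 to 0.34 (95%). Without Toxf/fPdcd1Cre replicate 1, the highest of its genotype, the log2 fold change of Lyl1 was -0.97 ± 0.38 (SE; adjusted p = 0.254, edgeR). Lmo2 overlaps 4931422A03Rik and Lyl1 overlaps Nfix, each on the opposite strand, and no source says whether counting used strand, so reads of the overlapping stretch cannot be told apart.

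The transcription factors fell into 2 kinds by their values, a division made after seeing them. Spi1 (ENSMUSG00000002111, chromosome 2 from 91082390 to 91115756, plus strand) behaved like Flt3 and Lmo2, with 9.36, 11.04 and 10.6 CPM in Toxf/fPdcd1Cre and 12.2 and 15.4 CPM in Toxf/f. Every Toxf/fPdcd1Cre value lay below both controls, and replicate 1 was the lowest of all. The log2 fold change of -0.42 ± 0.20 (SE) did not pass (adjusted p = 0.517, edgeR), and its 95% interval ran from -0.86 to 0.027. Flt3, Spi1 and Lmo2 were thus the 3 of the 10 genes with every Toxf/fPdcd1Cre library below both Toxf/f libraries, where 13.5% of the genes tested showed this.

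Mef2c (ENSMUSG00000005583, chromosome 13 from 83504034 to 83667080, plus strand), a MADS-box factor of lymphoid progenitors, was instead at 7.92 CPM in Toxf/fPdcd1Cre replicate 1 and at 4.21 and 4.33 CPM in replicates 2 and 3, against 6.98 and 10.8 CPM in Toxf/f. Its log2 fold change was -0.70 ± 0.33 (SE; adjusted p = 0.496, edgeR), and -1.10 ± 0.29 without replicate 1 (adjusted p = 0.0824). Bcl11a (ENSMUSG00000000861, chromosome 11 from 24078056 to 24174123, plus strand), a zinc-finger factor that B cell precursors require, had 8.61, 4.85 and 4.54 CPM in Toxf/fPdcd1Cre and 6.91 and 8.31 CPM in Toxf/f. Replicate 1 was its highest library of all, and the other Toxf/fPdcd1Cre libraries were its lowest. The log2 fold change of Bcl11a was -0.34 ± 0.31 (SE; adjusted p = 0.824, edgeR) with all libraries and -0.74 ± 0.25 without replicate 1 (adjusted p = 0.178).

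Meis1 (ENSMUSG00000020160, chromosome 11 from 18879817 to 19018985, minus strand), a homeobox factor of stem cells, had 11.5, 8.17 and 9.08 CPM in Toxf/fPdcd1Cre and 9.60 and 9.64 CPM in Toxf/f. The Toxf/f values lay inside the range of the Toxf/fPdcd1Cre values, and the log2 fold change was -0.0075 ± 0.23 (SE), with a 95% interval from -0.50 to 0.49, and -0.20 ± 0.21 without replicate 1. Hhex (ENSMUSG00000024986, chromosome 19 from 37434810 to 37440731, plus strand), another homeobox factor, was at 5.47, 2.36 and 2.20 CPM in Toxf/fPdcd1Cre and at 2.11 and 3.92 CPM in Toxf/f, for a log2 fold change of 0.14 ± 0.47 (SE) that became -0.45 ± 0.40 without replicate 1. Neither Meis1 nor Hhex passed (adjusted p = 0.995 and 0.968, edgeR), and the 95% interval of Hhex ran from -0.88 to 1.17.

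Cd34 (ENSMUSG00000016494, chromosome 1 from 194938819 to 194961279, plus strand), a sialomucin on the surface of progenitors and blood vessels, was the most abundant of the 10 and averaged 34.9 ± 9.16 CPM (SD, n = 3) in Toxf/fPdcd1Cre and 34.3 ± 0.909 CPM (SD, n = 2) in Toxf/f. The Toxf/fPdcd1Cre libraries had 45.4, 30.8 and 28.5 CPM and the Toxf/f libraries 35.0 and 33.7 CPM. Replicate 1 lay above all others and replicates 2 and 3 below, so the near-equal means hid a spread within the mutant genotype. The log2 fold change was 0.023 ± 0.19 (SE; adjusted p = 0.987, edgeR), and -0.25 ± 0.14 without replicate 1 (adjusted p = 0.470). Its direction also turned below 0 with upper-quartile scaling and in other fits.

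The spread among the Toxf/fPdcd1Cre libraries followed a pattern over the genes. Of the 10, 7 genes, Kit, Lyl1, Hhex, Mef2c, Meis1, Bcl11a and Cd34, were higher in Toxf/fPdcd1Cre replicate 1 than in both other libraries of the genotype, by 1.33-fold (Meis1) to 2.40-fold (Hhex) over their mean. Among all genes tested 38.2% were. Flt3, Lmo2 and Spi1 were not, with ratios of 1.05, 1.04 and 0.865. Summed over the 10 genes, the level was 124, 87.8 and 81.9 CPM in Toxf/fPdcd1Cre replicates 1, 2 and 3, against 113 and 136 CPM in the Toxf/f libraries. Toxf/fPdcd1Cre replicate 1 was the highest library for 4 of the 10 genes and Toxf/f replicate 3 for the other 6. Toxf/fPdcd1Cre replicate 3, of the same age as Toxf/f replicate 3, was the lowest for 5.

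**Figure D4:**
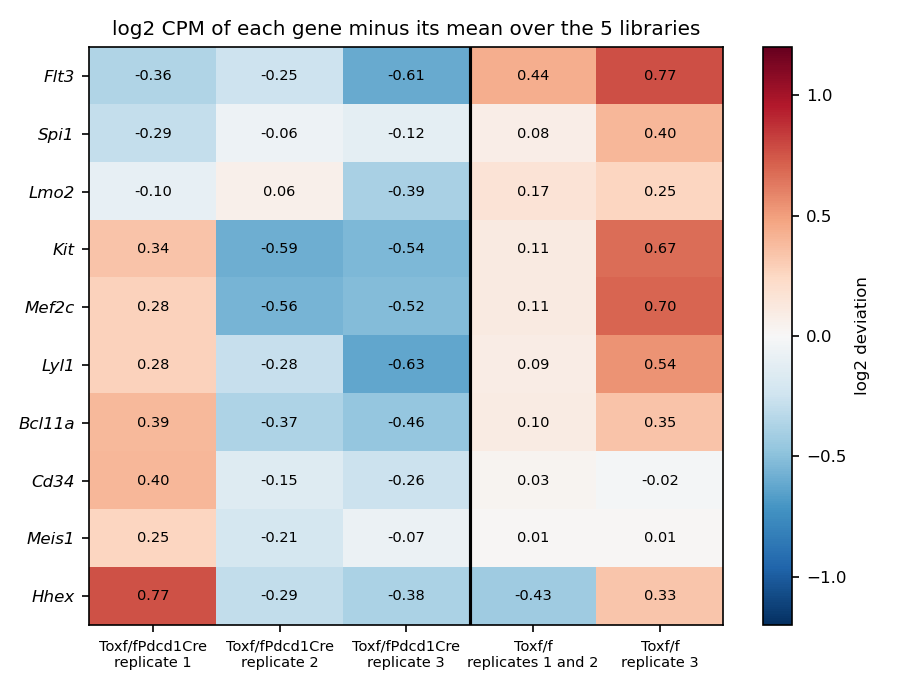
Log2 CPM of each early progenitor gene minus its mean over the 5 libraries (numbers and colours, log2 units; 0.5 CPM added before the logarithm), with Toxf/fPdcd1Cre left and Toxf/f right of the line. Flt3 runs from -0.61 to -0.25 in Toxf/fPdcd1Cre and stands at 0.44 and 0.77 in Toxf/f, while Kit stands at 0.34 in Toxf/fPdcd1Cre replicate 1 and at -0.59 and -0.54 in replicates 2 and 3.

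Other genes of early progenitors were read from a list that leaves the 10 out. Of its 16 genes 13 were tested, and 3 were called lower and 0 higher, beside 1.51% and 0.135% of all genes tested. The median log2 fold change was 0.036, and 5 of the 13 lay below 0. Ly6a, which encodes the stem cell antigen Sca-1 and is also found on mature T cells and endothelium, had 47.5, 37.0 and 33.4 CPM in Toxf/fPdcd1Cre and 88.7 and 96.2 CPM in Toxf/f (log2 fold change -1.23 ± 0.16 SE, adjusted p = 0.00297, edgeR). Hoxa7, a homeobox gene of blood progenitors, had 1.503, 2.17 and 2.75 CPM in Toxf/fPdcd1Cre and 6.47 and 6.69 CPM in Toxf/f, from 22 to 40 and 101 to 111 counts (log2 fold change -1.62 ± 0.33, adjusted p = 0.0334). Cd44, the hyaluronan receptor that marks the first double-negative stages and also memory T cells and macrophages, had 34.7, 27.2 and 29.6 CPM in Toxf/fPdcd1Cre and 49.1 and 47.8 CPM in Toxf/f (log2 fold change -0.67 ± 0.15, adjusted p = 0.0437). In all 3 the genotypes did not overlap. Replicate 1 was the highest Toxf/fPdcd1Cre library for Ly6a and Cd44 and the lowest for Hoxa7. Without it the same 3 were called, where 4.21% of all genes tested were called lower. Ly6a was called in 13 of 18 alternatives, Cd44 in 8 of 18 and Hoxa7 in 9 of the 17 that tested it. On the 3 FPKM scales 0 genes of the list were called. Each of the 3 lost its call without either Toxf/f library, with adjusted p from 0.0552 (Ly6a) to 0.340 (Hoxa7). The other tested genes of the list, among them Tal1, Gata2, Erg and Sox4, did not pass. Their log2 fold changes were 1.03 ± 0.71, 0.86 ± 0.61, -0.047 ± 0.31 and 0.17 ± 0.14 (SE). Tal1 and Gata2 averaged only 1.01 and 0.97 CPM in Toxf/fPdcd1Cre. Hoxa9 and Hoxa10, with 0 to 4 counts per library, were among those too low to test.

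A list of ligands and signal partners of KIT and FLT3 had 1 of 17 tested genes called lower and 0 higher, with a median of -0.023. Of all genes tested, 1.51% were called lower and 0.135% higher. The list also held Il7 and Il7r, and Il7r was the called gene, so no ligand or signal partner of KIT or FLT3 passed. Il7r, the interleukin 7 receptor chain on early precursors and on mature T cells, had 36.4, 24.8 and 30.3 CPM in Toxf/fPdcd1Cre and 48.8 and 53.5 CPM in Toxf/f (log2 fold change -0.75 ± 0.17 SE, adjusted p = 0.0496, edgeR). That call lies at the edge of the threshold and held in 7 of 18 alternatives. Flt3l, the ligand of FLT3, averaged 7.99 ± 2.32 CPM (SD, n = 3) in Toxf/fPdcd1Cre and 13.5 ± 0.672 CPM (SD, n = 2) in Toxf/f and did not pass (log2 fold change -0.76 ± 0.25, adjusted p = 0.239, edgeR). Kitl, the ligand of KIT, averaged 10.9 ± 4.58 CPM (SD, n = 3) in Toxf/fPdcd1Cre and 11.1 ± 0.565 CPM (SD, n = 2) in Toxf/f (log2 fold change -0.021 ± 0.32).

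Genes of T lineage commitment had 1 of 21 tested members lower and 0 higher (beside 1.51% and 0.135% of all genes tested), with a median of 0.078. The one that fell was Lef1, a Wnt-pathway factor, at 236 CPM in Toxf/fPdcd1Cre and 382 CPM in Toxf/f on average (log2 fold change -0.70 ± 0.14 SE, adjusted p = 0.0288, edgeR). It was called in 11 of 18 alternatives and not without Toxf/fPdcd1Cre replicate 2 (adjusted p = 0.0677), without either Toxf/f library (adjusted p = 0.264 and 0.294) or with age as a covariate (adjusted p = 0.0686). Bcl11b, the factor whose rise accompanies the loss of progenitor genes, averaged 508 ± 75.2 CPM (SD, n = 3) in Toxf/fPdcd1Cre and 463 ± 6.25 CPM (SD, n = 2) in Toxf/f (adjusted p = 0.870). Partners of the LMO2 and LYL1 complex, with E and Id proteins, had 0 of 14 called. An unadjusted p under 0.05 (edgeR) was met by 1 lower and 2 higher genes, beside 7.26% and 3.08% of all genes tested. Without Toxf/fPdcd1Cre replicate 1, 1 of the 14 was called lower, where 4.21% of all genes tested were.

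Genes of other cells moved with some of the 10. Of 12 conventional dendritic cell markers, all tested, 11 had log2 fold changes below 0, with a median of -0.66, and 2 were called lower, Ccl22 and Cd74. Of all genes tested, 45.2% lay below 0 and 1.51% were called lower, the shares to set beside this list and those that follow. The summed level of the 12 markers was 1863, 1606 and 1372 CPM in Toxf/fPdcd1Cre and 2450 and 2915 CPM in Toxf/f, and no marker was at 0 in any library. Cd74 and H2-Aa made up 72.1% of that sum. Without both it was 513, 457 and 385 CPM in Toxf/fPdcd1Cre and 684 and 804 CPM in Toxf/f. The count of 2 became 4 without Toxf/fPdcd1Cre replicate 1, a fit that called 4.21% of all genes lower, and 0 without either Toxf/f library, with a median of -0.41 without Toxf/f replicate 3. Cd74 was called in 9 of 18 alternatives and Ccl22 in 14. Of 13 myeloid genes that SPI1 is known to activate, all 13 lay below 0, with a median of -0.42, and Cybb, a subunit of the phagocyte oxidase, was called lower (log2 fold change -0.77 ± 0.14 SE, adjusted p = 0.0159, edgeR). Leaving out Toxf/fPdcd1Cre replicate 1 gave 3 calls, and leaving out replicate 3 of that genotype or either Toxf/f library gave 0. Their sum was 353, 451 and 419 CPM in Toxf/fPdcd1Cre and 717 and 670 CPM in Toxf/f, of which Lyz2, the lysozyme gene of macrophages and granulocytes, made up 50.5%. Lyz2 averaged 179 ± 64.4 CPM (SD, n = 3) in Toxf/fPdcd1Cre and 390 ± 52.0 CPM (SD, n = 2) in Toxf/f and was not called (adjusted p = 0.0539, edgeR). Without Lyz2 the sum was 248, 236 and 201 CPM in Toxf/fPdcd1Cre and 290 and 317 CPM in Toxf/f. Macrophage and monocyte markers, which share Lyz2 and Csf1r with that list, summed without Lyz2 to 548, 552 and 487 CPM in Toxf/fPdcd1Cre and 623 and 598 CPM in Toxf/f. Of these markers 8 of 11 were below 0 and 0 called, or 3 called lower without Toxf/fPdcd1Cre replicate 1. No member of these lists was at 0 in any library. The part of these cells in the values of Flt3 and Spi1 was not tested, and in bulk samples fewer cells of a type and less RNA per cell cannot be told apart.

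The sums of endothelial and of fibroblast markers were highest in Toxf/fPdcd1Cre replicate 1. Of the single markers, 7 of 10 endothelial and 5 of 8 fibroblast ones were highest there among all 5 libraries. The 10 endothelial markers summed to 311, 249 and 217 CPM in Toxf/fPdcd1Cre replicates 1, 2 and 3 and to 266 and 269 CPM in Toxf/f. The sum of the 10 progenitor genes had the same order within the mutant genotype. So did the sums of conventional dendritic, thymic epithelial (2822.5, 2771 and 2615.3 CPM), gamma-delta and natural killer (101, 82.3 and 80.9 CPM) markers. The sums of the other lists did not. The 8 fibroblast and pericyte markers summed to 586, 337 and 391 CPM in Toxf/fPdcd1Cre and to 429 and 369 CPM in Toxf/f. Col3a1 and Dcn made up 57.2% of that sum. Pecam1, which leukocytes also express, made up 64.9% of the endothelial sum, and each of the 10 markers was highest among Toxf/fPdcd1Cre libraries in replicate 1. Of neither list was a member called or at 0. Without replicate 1, 1 fibroblast marker was called lower and all 10 endothelial markers lay below 0, with a median of -0.37. In that fit 4.21% of all genes tested were called lower. Gamma-delta and innate-like lymphocyte markers also had their highest sum in replicate 1, at 793, 660 and 617 CPM in Toxf/fPdcd1Cre against 532 and 462 CPM in Toxf/f. The part of these cells in the high values of Kit, Cd34, Hhex and Mef2c in replicate 1 was not tested. Of 10 plasmacytoid dendritic cell markers, 7 were highest among Toxf/fPdcd1Cre libraries in replicate 1, and the median log2 fold change was -0.24 with it (0 called) and -0.57 without it (1 called lower). Ccr9 and Ly6d, which thymocytes also express, made up 91.3% of the summed CPM of that list. The other 8 summed to 159, 113 and 112 CPM in Toxf/fPdcd1Cre and 143 and 174 CPM in Toxf/f, the same order of replicate 1 above replicates 2 and 3 as in Bcl11a and Mef2c. The part of these cells in the values of Bcl11a and Mef2c was not tested.

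**Figure D5:**
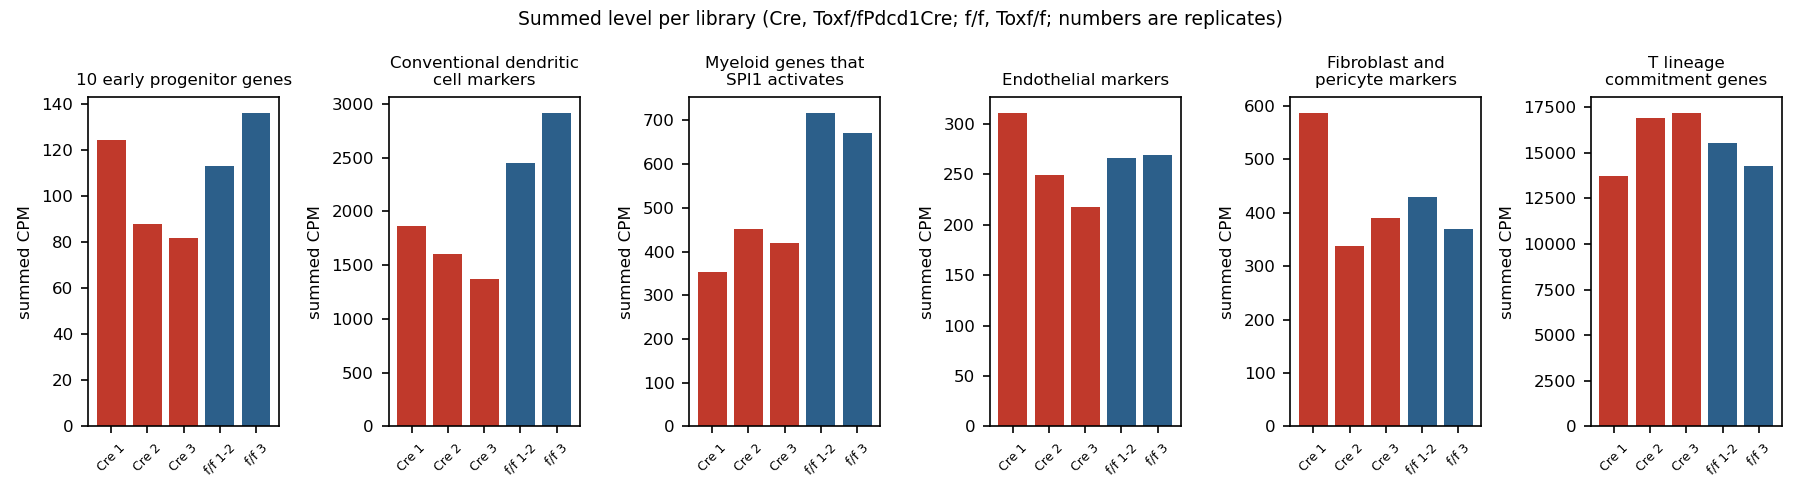
Summed CPM per library of the 10 early progenitor genes and of lists of other genes, Toxf/fPdcd1Cre in red left of Toxf/f in blue. The sums of conventional dendritic cell and SPI1-activated genes are lower in each Toxf/fPdcd1Cre library than in both Toxf/f libraries. Among Toxf/fPdcd1Cre libraries, replicate 1 has the highest sum of progenitor, conventional dendritic cell, endothelial and fibroblast genes.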

How the data were processed

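The authors deposited, for each gene and sample, an estimated count (some are not whole) and a length-scaled FPKM value, per the file headers. The submitters' processing notes name fastp 0.18.0, HISAT2 and StringTie 1.3.1 without saying what each did. For the counting tool, genome build, annotation and strand, the sources used here give nothing. Toxf/f replicates 1 and 2, identical in every gene, entered as 1 library. Estimated counts were rounded to whole numbers and filtered with filterByExpr, which left 14121 genes. They were scaled by TMM and tested with edgeR 4.0.16 (R 4.3.3), Toxf/fPdcd1Cre minus Toxf/f over 3 against 2 libraries, with no covariate and Benjamini-Hochberg adjustment over all genes, threshold 0.05. The labels do not say how many animals a sample holds, and p-values measure the spread between libraries. DESeq2 1.42.0 and limma 3.58.1, on log2(FPKM + 1) for genes of at least 1 FPKM in 3 libraries, were alternatives. The test was checked on simulated counts.

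Genes named beside the 10 came from 18 lists (205 of 207 genes matched): up to 4 called members with the smallest p per list, and of the rest up to 2 with the highest mean; values are printed where a result turns on them, and Flt3l and Kitl were added as ligands after their values were seen. The members and lists were chosen with earlier results of these data known. Gene coordinates are from GENCODE M21 (GRCm38), matched by Ensembl ID; the authors' build may be another.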

Additional observations from a re-analysis of the deposited data

How the results depend on the processing

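The count of called genes, 232 in all, became 417 with no low-count filter, 67 with at least 10 CPM in 3 libraries, 359 with DESeq2, 380 with the identical files counted separately, 125 with age as a covariate, and 57, 18 and 10 with limma on log2(FPKM + 1), on the same scale with no filter and on log2(FPKM + 0.1). Leaving out 1 library at a time gave 31 (without Toxf/f replicate 3) to 606 (without Toxf/fPdcd1Cre replicate 1). Of the 10 progenitor genes 1 was called lower. This count was 0 on each of these 3 FPKM scales, with age as a covariate and at 10 CPM in 3 libraries, where Flt3 was not tested, and 0 to 2 with 1 library left out; none was called higher in any of the 18 alternatives. Flt3 kept its call in 10 of the 17 alternatives that tested it, with adjusted p up to 0.393, and its log2 fold change below 0 in all 17. With the replicate number as a block, 435 genes were called with the shared Toxf/f library set in block 1, Flt3 alone among the 10. With it in block 2, 868 were called and 3 of the 10 were lower, where 5.45% of all genes were (Flt3, Kit at -0.99 and Mef2c at -1.03). In the first of these fits Toxf/fPdcd1Cre replicate 2, and in the second replicate 1, is alone in its block and adds nothing to the genotype difference. The block 2 fit is thus close to leaving out replicate 1 and is not a separate check of it. Deviations of Toxf/f replicate 3 and Toxf/fPdcd1Cre replicate 3 correlated at -0.146 over genes. Those of the shared library with Toxf/fPdcd1Cre replicates 1 and 2 correlated at -0.174 and 0.0878. The deviations of the 2 Toxf/f libraries mirror each other, so these values cannot show whether the replicate numbers pair the samples. Log2 fold changes near 0 changed sign. Cd34 was at -0.0012 with upper-quartile factors, -0.030 at 10 CPM in 3 libraries, -0.0085 with limma-voom, -0.055, -0.055 and -0.061 on the FPKM scales, -0.034 with age, -0.21 with the replicate block 2, and -0.25 to 0.15 with 1 library left out. Meis1 was at 0.0023 with no filter, 0.086 with the replicate block 1 and -0.20 to 0.095 with 1 library left out, and Hhex at -0.35 with the replicate block 2 and -0.45 to 0.66 with 1 library left out. The cause of these changes was not tested. Depth limits Lyl1 and Hhex most, with 21 to 80 counts per library.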

Other observations

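Of 18 family relatives of the 10 genes 16 were tested and 0 were called by edgeR. Before adjustment 0 were lower and 2 higher at p under 0.05, Pdgfrb and Podxl (log2 fold changes 0.58 ± 0.23 and 0.60 ± 0.27 SE; adjusted p = 0.387 and 0.481, edgeR). Of all genes tested 7.26% were lower and 3.08% higher before adjustment. Mef2a and Mef2d, relatives of Mef2c, averaged 263 ± 45.02 and 340 ± 59.4 CPM (SD, n = 3) in Toxf/fPdcd1Cre and 260 ± 20.1 and 327 ± 39.3 CPM (SD, n = 2) in Toxf/f. Spib, the lymphoid relative of Spi1, averaged 19.2 ± 6.90 CPM (SD, n = 3) in Toxf/fPdcd1Cre and 28.4 ± 7.42 CPM (SD, n = 2) in Toxf/f (log2 fold change -0.56 ± 0.26, adjusted p = 0.492). Id2, an inhibitor of E proteins, averaged 40.6 ± 5.94 CPM (SD, n = 3) in Toxf/fPdcd1Cre and 63.3 ± 4.64 CPM (SD, n = 2) in Toxf/f and stood just outside the threshold (log2 fold change -0.64 ± 0.15, adjusted p = 0.0671, edgeR), while the E protein genes Tcf3 and Tcf12 had log2 fold changes of 0.33 ± 0.14 and 0.32 ± 0.15 (adjusted p = 0.408 and 0.474). These genes were singled out after their values were seen.

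The number of CPM that corresponds to 1 FPKM should be nearly fixed for a gene of fixed length. For Mef2c it ran from 2.01 in Toxf/fPdcd1Cre replicate 1 to 3.03 in Toxf/fPdcd1Cre replicate 3, a ratio of 1.51, and for Spi1, Bcl11a and Lyl1 the highest and lowest libraries differed by 1.29, 1.27 and 1.22 times. For the other 6 genes they differed by at most 1.09 times. For these 10 genes CPM carried the TMM scaling, which itself differs between libraries. Among 10714 genes with at least 50 counts in every library, CPM was scaled by total counts alone. There the median of this ratio was 1.03 and its 90th percentile 1.22. The ratios of the 10 genes are not on that scale and cannot be compared with these directly. Of the gamma-delta and innate-like list 2 of 8 members were called higher, and of natural killer and innate lymphoid markers 2 of 8. Of B cell markers 1 of 12 was called lower and 1 higher. Of double-positive and mature thymocyte markers 3 of 13 were called lower, Ccr7, S1pr1 and Klf2 (log2 fold changes -2.19, -1.73 and -1.23). Rag1 and Trbc2, the most abundant of that list, were not called (0.23 and -0.11). These counts were the same without Toxf/fPdcd1Cre replicate 1. Of all genes tested 1.51% were called lower and 0.135% higher, or 4.21% and 0.144% without that library. Of thymic epithelial markers 1 of 10 was called lower, or 2 without that library. Of 8 granulocyte and mast cell markers tested 0 were called, or 1 of 7 lower without that library. Of 7 erythroid markers tested 0 were called by edgeR at an adjusted p under 0.05. Before adjustment 3 were lower at p under 0.05 (edgeR), where 7.26% of all genes tested were. Without Toxf/fPdcd1Cre replicate 2, 4 were called lower, where 1.22% of all genes tested were.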
